A study of Mus musculus with 2 samples.

Results

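Megakaryocyte-primed cells were examined within Lin-Sca-1+c-Kit+ (LSK) cells, the stem and progenitor fraction of mouse bone marrow in which the leukemia-initiating cells of this chronic myeloid leukemia (CML) model reside. A cell was counted as megakaryocyte-primed when its barcode held at least 8000 unique molecular identifiers (UMIs, each a captured RNA molecule) with under 10% of them from mitochondrial genes, when at least 1 UMI was found in 3 or more of the 5 platelet-lineage genes Pf4, Cavin2, Gp1bb, Treml1 and Gp5, and when Prtn3, Ctsg, Mpo and Elane, which encode proteins of neutrophil granules, together made up fewer than 10 UMIs per 10000. This rule selected 329 of 10821 cells. They were 210 of 5363 cells in the miR-142 WT CML library and 119 of 5458 cells in the miR-142 KO CML library.

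Both groups were 8-10 weeks old BCR-ABL+ mice in which the SCL promoter drives a tetracycline-repressed BCR-ABL transgene in stem and progenitor cells, and expression had been induced by tetracycline withdrawal. The KO group also lacked Mir142, whereas the WT group kept it, so that both groups carried the leukemia transgene and no library came from mice without it. About 8000 cells per group were captured for single-cell RNA sequencing (scRNA-seq) with a 3′ kit, as 1 library per group, and the number of mice behind each library is not given in the sources used here. With 1 library per group there is no replicate error and no test of genotype. The intervals below are exact 95% intervals (Clopper-Pearson for shares, Poisson for summed counts, conditional binomial for ratios). They cover counting error only and not the spread between cells or mice, so that genotype and library cannot be told apart.

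Megakaryocytes are the large marrow cells that shed platelets. Part of the stem and progenitor pool already transcribes megakaryocyte genes, and in mouse marrow such platelet-primed cells are found close to the top of the hematopoietic hierarchy. Commitment is marked by the fibrinogen receptor integrin αIIbβ3 (Itga2b and Itgb3), by the von Willebrand factor receptor complex (Gp1ba, Gp1bb, Gp5 and Gp9), and by transcription factors such as Gata1, Fli1, Runx1 and Zfpm1. miR-142 is a hematopoietic microRNA that acts through the seed of either mature strand. The 2 strands are shown because the KO group lacked the gene that encodes them, with the seed (bases 2 to 8) in capitals (RefSeq, GRCm38.p6, chromosome 11, plus strand).
miR-142a-5p, from 87756867 to 87756887: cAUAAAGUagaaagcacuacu
miR-142a-3p, from 87756903 to 87756925: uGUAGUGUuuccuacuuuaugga

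The labels were first checked at the deleted locus. The mature strands are not captured by poly(A)-primed libraries, but their host transcript Mir142hg (chromosome 11, from 87755577 to 87757270, plus strand) can be. Mir142hg had 37 UMIs in 31 of the 210 WT cells and 0 UMIs in the 119 KO cells. Against the floor of 3 counts it was at least 5.53-fold lower in KO. The next gene downstream on the same strand, Tspoap1 (from 87760541, which is 3271 bases past the host transcript), had 6 UMIs in 5 WT cells and 448 UMIs in 115 KO cells, or 1.19 and 199 CPM (UMIs of the gene after the summed UMIs of the selected cells of a library had been scaled to 1000000). The upstream neighbour Supt4a had 154 and 140 CPM. Xist was at 1323 and 1188 CPM, and Ddx3y, Eif2s3y, Kdm5d and Uty had 0 UMIs in both libraries. The markers of the sort were present, with Kit detected in 76.2% of WT and 56.3% of KO cells and Ly6a, which encodes Sca-1, in 39.5% and 44.5%.

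The depth of the cells differed between the libraries. Megakaryocyte-primed cells held a median of 21457 UMIs and 4687 genes in WT and 17377 UMIs and 4119 genes in KO, which summed to 5026545 and 2255484 UMIs. Over all cells the order was the opposite, with medians of 19443 UMIs in WT and 24182 in KO. Mitochondrial genes took a median of 2.69% and 1.95% of the UMIs. No barcode of a megakaryocyte-primed cell was shared by the libraries, and 4 barcodes were shared among all cells.

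The share of megakaryocyte-primed cells depended on what it was measured against. They made up 3.92% (3.41 to 4.47) of all WT cells and 2.18% (1.81 to 2.60) of all KO cells, and these intervals did not overlap. Against the granule-low cells, which are all cells under the limit of 10 granule UMIs per 10000, they made up 9.30% (8.13 to 10.6) in WT and 14.0% (11.7 to 16.5) in KO, which is the opposite order. The granule-low cells themselves were 42.1% of WT and 15.6% of KO cells. The limit on granule genes removed only 12 WT and 9 KO cells that had enough markers, and without it the shares were 4.14% and 2.35%. Since deeper cells reach 3 detected markers more readily, the rules were also applied to cells cut down to 8000 randomly drawn UMIs each (thinning). Then 72 WT cells (1.34%, 1.05 to 1.69) and 59 KO cells (1.08%, 0.824 to 1.39) remained, and the intervals overlapped. Of the granule-low cells they were then 3.34% (2.63 to 4.19) and 7.20% (5.52 to 9.18). A lower share of all cells in KO was thus not detectable at equal depth, whereas the higher share among granule-low cells remained at equal depth.

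**Figure D1:**
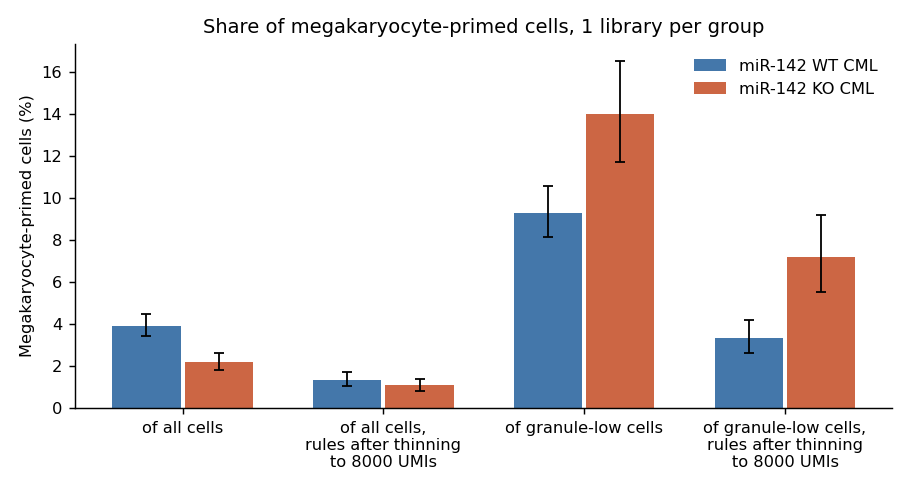
Bars give the percentage of megakaryocyte-primed cells in the WT (blue) and KO (orange) libraries, over all cells or over granule-low cells, with the rules applied to full counts or after thinning to 8000 UMIs. Error bars are exact 95% binomial intervals. The KO bar is the lower one over all cells (2.18% against 3.92%) and the higher one over granule-low cells (14.0% against 9.30%).

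The 5 marker and 4 granule genes chose the cells, so their values are a description. Pf4, which encodes the chemokine platelet factor 4, had 2814 and 2721 UMIs in the WT and KO cells, or 560 and 1206 CPM. Single WT cells ran from 0 to 88.2 Pf4 UMIs per 10000 with a median of 1.24, and KO cells from 0 to 87.7 with a median of 3.26. The ranges overlapped completely, and the 10 cells richest in Pf4 held 58.5% of its UMIs in WT and 58.8% in KO. Gp1bb, a chain of the von Willebrand factor receptor, had 24.3 CPM in WT and 64.7 CPM in KO and was found in 41.9% and 69.7% of the cells. Gp5, another chain of that complex, had 76.6 and 81.1 CPM. Treml1, a receptor stored in platelet granules, had 61.5 and 71.8 CPM, and Cavin2, a caveola protein, had 103 and 74.9 CPM. The 5 markers thus did not differ in one direction. When the rules were applied after thinning, the log2 ratio of KO over WT for Pf4 went from 1.11 to 0.08 and that of Gp1bb from 1.41 to 1.18.

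The detection of the markers, which the rule itself required, is given beside background as a description. After thinning to 8000 UMIs, Pf4 was detected in 61.9% of the WT and 75.6% of the KO megakaryocyte-primed cells, and in 1.71% and 0.998% of the granule-high cells (100 or more granule UMIs per 10000, at median depths of 60154 and 43602 UMIs before thinning). Cavin2 was detected in 43.3% and 37.0% of the selected cells and in 0.380% and 0.0998% of the granule-high cells. Free RNA, taken from barcodes of 10 to 100 UMIs, held Pf4 at 36.2 CPM (WT) and 23.1 CPM (KO). Granule genes were the reverse, since Prtn3, Ctsg, Mpo and Elane summed to 267 and 302 CPM in the selected cells but to 5899 and 13537 CPM in free RNA. Free RNA was also subtracted as 5% of UMIs, with levels cut off at 0. Elane fell to 0 in both libraries, so its log2 ratio of KO over WT went from 1.12 to 0. Prtn3 fell to 0 in KO only, and its ratio went from 0.04 to -9.08, a value set by the 0.1 CPM added to each level. The granule ratios in these cells thus depended on this step, which gave no corrected ratio for Elane or Prtn3. The part of free RNA in which cells passed the granule limit was not tested.

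Of the selected WT cells 114 had 3 markers, 64 had 4 and 32 had all 5. In KO these numbers were 57, 43 and 19. Just outside the rule, 203 WT and 101 KO granule-low cells had 2 markers. The highest granule level inside the rule was 9.69 per 10000 in WT and 8.89 in KO, and the lowest level among the cells removed was 10.0 and 12.9. Since the rule required these markers, the label was checked only on genes the rule did not use. Relative to granule-low cells with none of the 5 markers (1320 WT and 454 KO cells, called no-marker cells here), and apart from the markers themselves, the leading genes in both libraries included Tuba8 (an α-tubulin, 10.5-fold in WT and 6.89-fold in KO), Slc14a1 (a urea transporter, 5.20-fold and 9.97-fold), Gp9 (5.78-fold and 5.67-fold), Gata1 (7.18-fold and 3.32-fold) and Zfpm1, the Gata1 cofactor (3.54-fold and 4.46-fold). Mfsd2b, Icam4, Rap1b, Plxnc1 and Unc119 were also in that group, of which Icam4, an adhesion molecule of red cells, is on the erythroid list as well. The erythroid list summed to 927 CPM in WT and 586 CPM in KO selected cells, beside 650 and 915 CPM in no-marker cells. Car2, described below, held most of the WT sum of the selected cells. Over the 8 erythroid genes with a mean of 10 CPM or more, the median log2 ratio of KO over WT was 0.08 (-1.35 to 1.45). Of these 8 genes 5 were above 0, so the sums did not show the direction of most of them. These folds describe the selected cells and are no test, because the cells were chosen on genes of the same lineage.

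**Figure D2:**
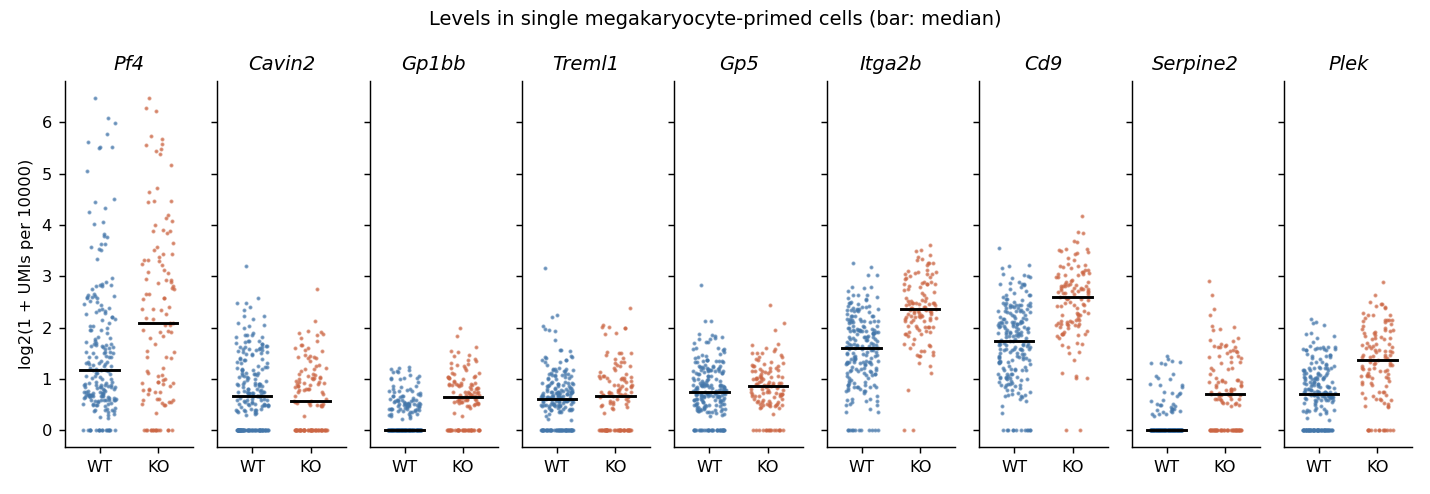
Each point is 1 megakaryocyte-primed cell, with the level of a gene as log2(1 + UMIs per 10000) in the WT (blue, 210 cells) and KO (orange, 119 cells) libraries, and a black bar at the median. The 5 genes at the left chose the cells, and the 4 at the right (Itga2b, Cd9, Serpine2, Plek) did not; all 4 have the higher median in KO.

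Genes of late megakaryocytes and of mature platelets were scarce. Tubb1, the platelet β-tubulin, had 0 UMIs in WT and 1 UMI in KO, Ppbp, a platelet chemokine, had 5 and 19 UMIs, Thbs1 had 4 and 4, and Gp6, P2ry12 and Mpig6b had 0 UMIs in both. A count of 0 allows up to 0.597 CPM in WT and 1.33 CPM in KO (3 counts). Of 20 erythroid genes 7 were at 0 in both libraries, among them Alas2, Slc4a1 and Hba-a2. Klf1, the erythroid master regulator, had 59 and 14 UMIs in 21.4% and 10.9% of the cells, the β-globin Hbb-bt had 18.9 and 51.9 CPM, and Epor, the erythropoietin receptor, had 21.5 and 21.3 CPM. Of the 6 endothelial and stromal genes, 3 (Cdh5, Cxcl12, Col1a1) were at 0 in both libraries, and of the 5 eosinophil genes 4 were.

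A few selected barcodes also carried programs of other cells, and they decided the sums of several genes. A single WT barcode with 59554 UMIs and 3 markers held 13484 of the 13736 Igkc UMIs of all WT members, 22.6% of its own total, together with 114 of the 123 Cd74 UMIs. Antibody chains are made by plasma cells and B cells. A single KO barcode with 48443 UMIs and 5 markers held 844 of 853 UMIs of the mast cell protease Cma1, 315 of 376 of Cpa3 and 40 of 60 of Lilrb4a. Another KO barcode held 131 of 173 UMIs of Calca. With 10 or more UMIs per 10000 of antibody, innate lymphoid or mast and basophil genes as the mark, there were 4 such barcodes in each library, at median depths of 40171 and 33991 UMIs. The share, the gene counts, the list medians and the ratios of most named genes were also computed without them, but the levels by marker number and the seed matches were not.

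Gene levels were then compared between KO and WT by summing the UMIs of all selected cells of a library. Among 7796 genes with a mean of at least 10 CPM over both libraries, 77 had a KO level of 2-fold or more over WT (0.988%) and 90 a WT level of 2-fold or more over KO (1.15%), with log2 ratios taken after adding 0.1 CPM. The median log2 ratio was -0.05, so the libraries were nearly level over all genes. Among the 2843 genes at 50 CPM or more, 21 were higher and 9 lower. Without the 8 barcodes with other programs, 64 were higher and 100 lower, of which 58 and 73 were among the genes counted before. The same genes were also compared in the no-marker cells, where 201 were 2-fold or more higher and 104 lower. Of the 77 higher genes 46 were also 2-fold or more higher there, and of the 90 lower genes 25 were also 2-fold or more lower there. The ratio there was above 0 for 74 of the 77 higher genes and under 0 for 80 of the 90 lower genes. Most genes of both groups thus had the same direction in the no-marker cells. The difference between the cell groups was not tested. The no-marker cells themselves differed in make-up between the libraries. In them, mast and basophil genes summed to 4573 CPM in WT and 17989 CPM in KO, and antibody genes to 26738 and 137 CPM. The part of this in the no-marker ratios given here and below was not tested.

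**Figure D3:**
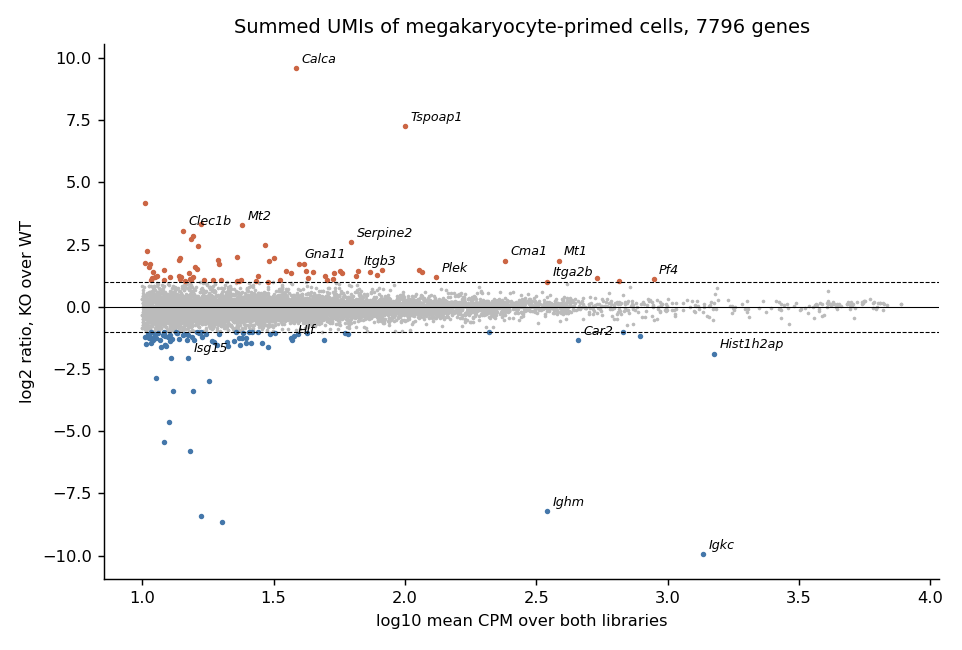
Each point is 1 of 7796 genes, with the log10 of its mean CPM over both libraries on the x axis and the log2 ratio of KO over WT in megakaryocyte-primed cells on the y axis. Coloured points lie at or beyond the dashed 2-fold lines (77 higher in orange, 90 lower in blue). Most UMIs of Igkc and Ighm at the bottom and of Calca at the top came from 1 barcode each, and Tspoap1 (7.26) adjoins the deleted locus.

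Megakaryocyte genes were grouped by role into 5 lists without the rule genes. Of 104 listed genes 84 passed the filter, 54 of them had a ratio above 0, 8 were at least 2-fold higher in KO against 0.988% of all genes, and 0 were at least 2-fold lower against 1.15%. The median log2 ratio was 0.15 (0.03 to 0.26, exact order-statistic interval over genes), beside -0.05 over all genes. When the rules were applied after thinning, it was 0.01. In no-marker cells the median of the same lists was 0.28 with 58 genes above 0, so a median above 0 was not particular to the selected cells. The no-marker medians were 0.56 for granule and secreted proteins and 0.26 for the cytoskeleton. The roles differed, and the surface receptors were the group that stood highest under both forms of the rule.

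Surface receptors and adhesion molecules were mostly higher in KO. Of 23 listed genes 16 passed the filter, 14 had a ratio above 0 and 5 were at least 2-fold higher, with a median of 0.69 (0.44 to 1.15), and 0.66 with the rules applied after thinning. Gp1ba and Clec1b passed the filter only through their KO level, and over the 7 receptors with a mean of 50 CPM or more the median was 0.70, with 6 above 0 and 2 at least 2-fold higher. Itga2b (αIIb) had 1154 and 1047 UMIs, or 230 and 464 CPM, a log2 ratio of 1.02 (0.89 to 1.14), and 0.77 with the rules applied after thinning. Single WT cells had an interquartile range of 1.16 to 3.10 Itga2b UMIs per 10000 and KO cells one of 3.06 to 6.11, so that these ranges barely met. Its partner Itgb3 had 35.4 and 97.1 CPM (log2 ratio 1.45, 1.16 to 1.75) and was detected, after thinning, in 23.3% and 52.1% of the cells, beside 0.569% and 1.65% of granule-high cells. The tetraspanin Cd9 had 286 and 540 CPM (0.92, 0.81 to 1.03), with medians of 2.36 and 5.01 per 10000. The thrombin receptor F2r had 109 and 177 CPM (0.70, 0.51 to 0.88), and F2rl2, a related thrombin receptor, had 26.5 and 59.0 CPM (1.15, 0.80 to 1.51). Gp1ba, the chain that binds von Willebrand factor, had 5.77 and 21.7 CPM (1.89, 1.22 to 2.63). Clec1b, the podoplanin receptor CLEC-2, had the highest ratio (3.07, 2.27 to 4.03), but from only 15 and 58 UMIs in 9 and 26 cells.

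Not all receptors were higher in KO. Esam, an endothelial and platelet adhesion molecule that also marks stem cells, had 49.7 and 47.4 CPM. In no-marker cells the receptors were higher in KO as well, with a median of 0.97 and Itga2b at 48.6 and 166 CPM, which were below the levels in the megakaryocyte-primed cells of either library.

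Among granule and secreted proteins Serpine2 stood out. Serpine2, a thrombin-inhibiting serpin stored in platelets, had 89 UMIs in WT and 242 in KO, or 17.7 and 107 CPM (log2 ratio 2.59, 2.24 to 2.97). The ratio was 1.82 with the rules applied after thinning. Serpine2 was detected in 19.0% of WT and 64.7% of KO cells. After thinning, the shares were 10.0% and 44.5%, beside 8.35% and 25.9% in granule-high cells, so that the WT share was close to that of cells of another lineage. In no-marker cells Serpine2 was at only 1.34 and 2.53 CPM. Vwf had 21.9 and 38.1 CPM (0.80, 0.38 to 1.22) and its UMIs came from 29.0% and 32.8% of the cells. Srgn, the granule proteoglycan, had 1427 and 1568 CPM (0.14), Tgfb1 had 392 and 384 CPM (-0.03, the sign of which turned under TMM scaling, which sets the bulk of genes level), and Angpt1, a ligand of the Tie2 receptor, was lower in KO with 202 and 141 CPM (-0.51, -0.70 to -0.33). Over the 10 genes past the filter the median was 0.08, and -0.07 with the rules applied after thinning, a change of sign, with 11 genes past the filter there. Another granule gene lay outside the lists. Slc35d3, a nucleotide-sugar transporter needed for platelet dense granules, had 19.3 and 63.4 CPM (1.71, 1.33 to 2.10).

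Genes of the cytoskeleton were nearly level as a group, whereas in signalling the abundant genes were higher in KO. The 18 cytoskeletal genes past the filter had a median of 0.14 with 12 above 0, and -0.05 when the rules were applied after thinning. Tpm4, a tropomyosin, was the only one at least 2-fold higher (15.1 and 32.4 CPM), Vcl (vinculin) had 38.0 and 51.4 CPM, Pfn1 (profilin) had 1829 and 2159 CPM, and Wasf2 was lower with 109 and 78.9 CPM (-0.47, -0.72 to -0.22). The 20 signalling genes had a median of 0.11 with 13 above 0, but all 9 genes with a mean of 50 CPM or more were above 0, with a median of 0.59. The listed genes together had 1726 CPM in WT and 2353 CPM in KO, with medians of 15.9 and 22.3 per 10000 over single cells. The 2 with the largest ratios act on integrin αIIbβ3 in platelets. Plek, encoding pleckstrin, the main substrate of protein kinase C in platelets, had 80.4 and 183 CPM (1.18, 0.98 to 1.39), and its ratio was 0.87 with the rules applied after thinning. Rap1b, the GTPase that switches the integrin on, had 526 and 904 CPM (0.78, 0.70 to 0.86), and its ratio was 0.26 with the rules applied after thinning. Lcp2, the adaptor SLP-76, was lower in KO with 41.8 and 27.9 CPM (-0.58, -1.01 to -0.17), as was Stat5b with 25.5 and 15.1 CPM (-0.75, -1.35 to -0.20). In no-marker cells the median of the signalling list was 0.30 with 15 above 0, further from 0 than in the selected cells.

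Transcription factors did not share the higher level of the receptors. None of the 20 genes past the filter reached 2-fold in either direction, 9 were above 0, and the median was -0.03, which became 0.03 with 12 genes above 0 under TMM scaling. Gata1 had 63.5 and 62.1 CPM (-0.03, -0.33 to 0.26), Fli1 had 210 and 221 CPM (0.07) and Runx1 had 123 and 112 CPM (-0.14). Mef2c was higher in KO with 419 and 535 CPM (0.35, 0.25 to 0.45). Meis1, a homeobox factor shared with stem cells, was lower with 216 and 140 CPM (-0.63, -0.81 to -0.45). Gata2 (150 and 111 CPM) and Nfe2 (62.1 and 41.7 CPM) were lower too. In no-marker cells, whose make-up differed between the libraries, Gata1 and Gata2 were higher in KO (1.08 and 0.97). That these ratios differ from those of the selected cells was not tested.

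**Figure D4:**
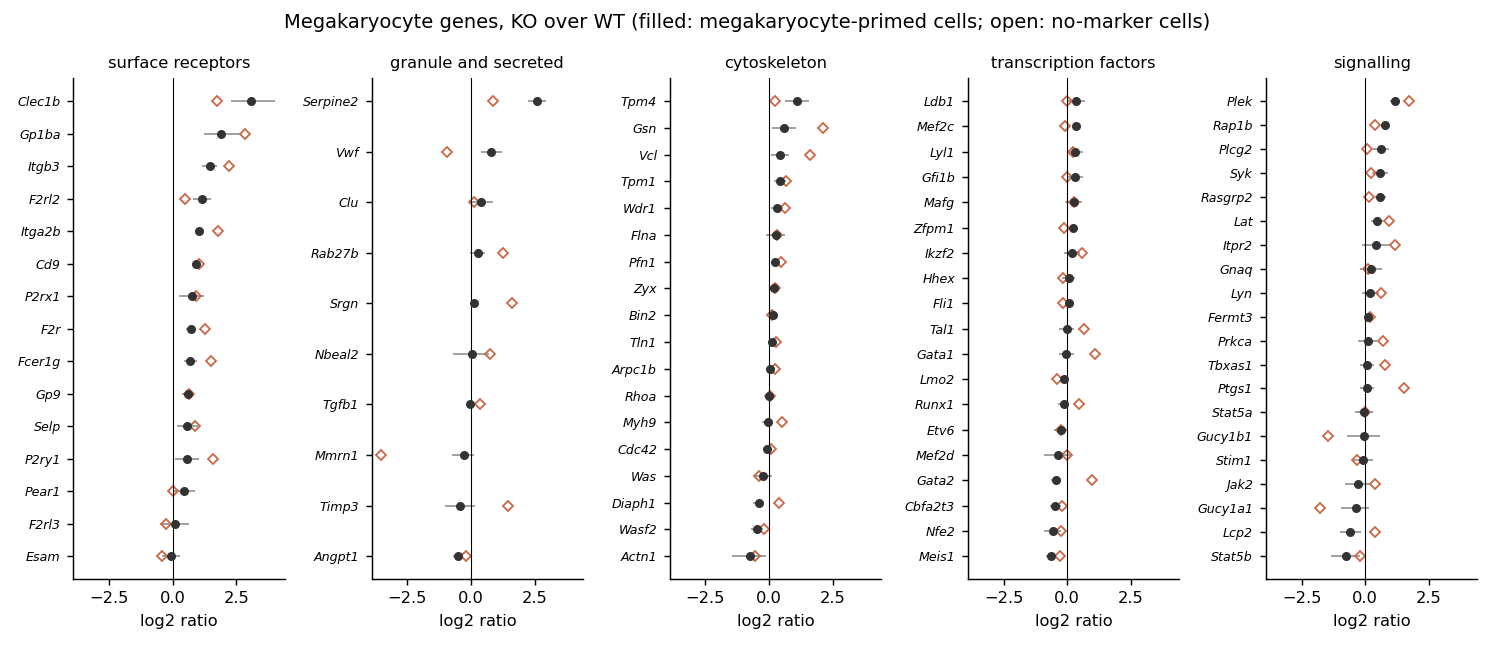
Rows are megakaryocyte genes past the filter, in 5 panels by role without the genes not reported here, with the log2 ratio of KO over WT on the x axis. Filled points with lines are megakaryocyte-primed cells with exact 95% counting intervals, and open diamonds are no-marker cells. In the first panel 14 receptors lie right of 0, while the transcription factors spread to both sides of it.

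Cells with more of the 5 markers also had more Itga2b, Cd9, Plek, Rap1b and Vwf, and for the first 3 of these the libraries stayed apart at each marker number. The markers are those of the rule, so these levels are a description. Depth also rose with marker number and was not made equal here. Cells with 3, 4 and 5 markers held medians of 19165.5, 21658.5 and 30568 UMIs in WT. In KO these were 15567, 21513 and 22680 UMIs. Itga2b was at 179, 233 and 341 CPM in WT cells with 3, 4 and 5 markers and at 398, 461 and 605 CPM in KO cells. The lowest KO level thus exceeded the highest WT level. Cd9 ran through 206, 309 and 438 CPM in WT and through 482, 561 and 614 CPM in KO, and Plek through 62.4, 76.1 and 128 against 160, 165 and 266 CPM. Rap1b differed in pattern, with 319, 497 and 1050 CPM in WT and 798, 935 and 1058 CPM in KO, so the libraries met in the cells with all 5 markers. Pf4 behaved likewise, with log2 ratios of 2.07, 1.87 and 0.44. Vwf ran through 10.1, 21.1 and 50.5 CPM in WT and 19.7, 44.8 and 62.5 CPM in KO. Cavin2 was lower in KO at each number of markers.

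Hlf showed the opposite gradient in WT. Hlf, a transcription factor of long-term stem cells, was at 96.3 CPM in the WT cells with 2 markers and at 66.0, 46.2 and 33.7 CPM with 3, 4 and 5. In KO it was at 19.4, 20.8, 20.1 and 24.6 CPM and showed no such gradient. Over all selected cells it had 268 UMIs in 105 of 210 WT cells and 48 UMIs in 34 of 119 KO cells, or 53.3 and 21.3 CPM (-1.32, -1.80 to -0.88). Mllt3, another regulator of stem cell maintenance, had 27.3 and 10.2 CPM (-1.41, -2.12 to -0.77), and Procr and Fgd5 had 9 and 7 UMIs in WT and 0 in KO. Mecom (28.4 and 23.5 CPM) did not differ beyond counting error. Ly6a was higher in KO with 46.4 and 85.1 CPM, but 10 cells held 66.7% of its KO UMIs. Kit, the stem cell factor receptor used in the sort, was lower in KO with 94.7 and 48.8 CPM (-0.96, -1.27 to -0.66). Of 7 stem cell genes past the filter 2 were above 0 and 2 at least 2-fold lower, against 1.15% of all genes, with a median of -0.27. Over the 3 with a mean of 50 CPM or more the median was 0.74 with 2 above 0, and the listed genes together had 315 CPM in WT and 322 CPM in KO.

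**Figure D5:**
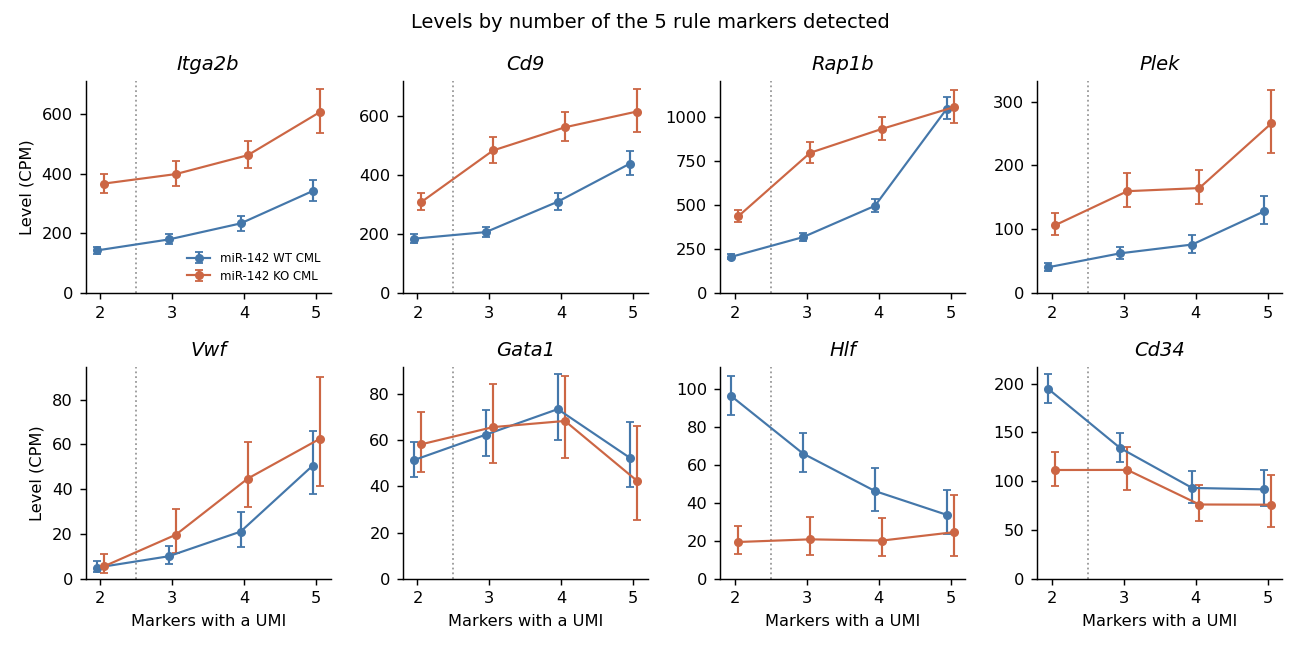
Each panel gives the level of 1 gene in CPM against the number of the 5 rule markers detected in the cells, with exact 95% Poisson intervals, in WT (blue) and KO (orange). Points left of the dotted line are the cells with 2 markers, which lie outside the rule. Full counts were used, and the depth of the cells rose with marker number. Itga2b, Cd9 and Plek are higher in KO at every number, Gata1 is close in both libraries, and Hlf declines with marker number in WT from 96.3 to 33.7 CPM while it stays between 19.4 and 24.6 CPM in KO.

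The genes with the largest ratios outside the lists were led by Tspoap1 (7.26), the neighbour of the deleted locus described above. Mt2, one of the small metal-binding metallothioneins, came next with 4.38 and 43.4 CPM (3.28, 2.63 to 4.05). Mt1, another, had 837 UMIs in WT and 1357 in KO, or 167 and 602 CPM (1.85, 1.73 to 1.98), and was detected, after thinning, in 48.1% and 91.6% of the cells, beside 93.7% and 99.2% of granule-high cells. Mt1 was also higher in no-marker cells (1.66). Hes1, a Notch target repressor, had 8.75 and 49.7 CPM (2.49), and Id3, an inhibitor of helix-loop-helix factors, had 3.78 and 27.5 CPM (2.83). Syngr1, a synaptogyrin, had 13.1 and 47.4 CPM (1.85), and Homer2, a scaffold protein, had 9.15 and 30.1 CPM (1.71). Lilrb4a (2.71) rested on 1 barcode for 40 of its 60 KO UMIs, and with the rules applied after thinning its ratio was -0.10. Tspoap1, Mt2, Hes1, Id3, Homer2 and Lilrb4a passed the filter only through their KO level. The 10 richest KO cells held 64.5% of the Id3, 49.1% of the Hes1, 48.5% of the Homer2 and 46.9% of the Mt2 UMIs.

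Among the lowest ratios, Igkc and Ighm rested on the single WT barcode described above, and without the richest cell of each library their ratios were -4.45 and -3.12. The histone Hist1h2ap had 2365 CPM in WT and 639 CPM in KO (-1.89, -1.97 to -1.81), although the near-identical histone genes may share reads. Car2, a carbonic anhydrase of red cell and megakaryocyte progenitors, had 655 and 257 CPM (-1.35, -1.48 to -1.22). The interquartile range over single cells was 3.90 to 9.48 Car2 UMIs per 10000 in WT and 1.35 to 3.48 in KO. Further genes named by rank were Gm49980 (-2.96), Bex1 (-1.63), Anxa2, a membrane-binding annexin (-1.56), Rnpep, an aminopeptidase (-1.55), Tsix, the antisense RNA of Xist (-1.54), Hist1h2ab (-1.47) and Slfn9 (-1.44). Of these, Anxa2 was level in no-marker cells (0.09) and the others were lower in KO there too.

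Several interferon-induced genes of low level were lower in KO, whereas the listed genes together had 3428 CPM in WT and 3444 CPM in KO. Ifi27l2a (28.6 and 2.66 CPM, -3.38) and Ube2l6, the conjugating enzyme for ISG15 (42.0 and 15.1 CPM, -1.47), were among the 12 lowest ratios. For Ifi27l2a, however, 10 cells held 79.2% of the WT UMIs, and 1 cell held 75 of them. Of the 38 listed interferon genes 20 passed the filter, 4 were above 0 and 7 were at least 2-fold lower, against 1.15% of all genes. The other 13 were within 2-fold. Ifi27l2a, Isg15 and Xaf1, which are among those 7, passed the filter only through their WT level. The median of the 20 genes was -0.65 (-1.10 to -0.10), -0.12 over the 6 genes with a mean of 50 CPM or more, of which 3 were above 0, and -0.66 without the 8 barcodes with other programs. With the rules applied after thinning it was -0.32 over 16 genes, of which 4 were at least 2-fold lower. Trim30a had 154 and 26 UMIs in 102 WT and 21 KO cells (-1.40, -2.07 to -0.80), and Xaf1 had 91 and 14 UMIs in 67 and 13 cells (-1.53, -2.47 to -0.72). Isg15, the ubiquitin-like protein itself, had 24.1 and 5.76 CPM, but 10 cells held 60.3% of its WT UMIs. The abundant membrane proteins Ifitm1, Ifitm2 and Ifitm3 went the other way, with ratios of 0.26, 0.12 and 0.17. In no-marker cells the median of the same list was -0.25.

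Cell cycle genes were lower in KO by small amounts. Of 43 S phase genes past the filter 1 was above 0 and 0 reached 2-fold, with a median of -0.40 (-0.46 to -0.33). Pcna, the replication clamp, had 265 and 228 CPM, and Rrm2, a ribonucleotide reductase subunit, had 92.1 and 50.5 CPM (-0.86, -1.17 to -0.57). Of 51 G2/M genes 7 were above 0 and 1 was at least 2-fold lower, with a median of -0.25. The S phase median was -0.24 with the rules applied after thinning, and it was further from 0 in no-marker cells (-0.70).

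Metabolic genes encoded in the nucleus differed little. Of 76 nuclear genes of oxidative phosphorylation 59 were above 0, but the median was 0.09 (0.05 to 0.13) and 0 reached 2-fold. It was 0.14 with 68 above 0 under TMM scaling, which moved every ratio by 0.05. The 13 mitochondrially encoded genes went the other way, with 1 above 0 and a median of -0.37. In no-marker cells their median was -0.30, and in free RNA they summed to 33466 CPM in WT and 19463 CPM in KO, so this was not particular to the selected cells. Among the 13 genes, in the selected cells, mt-Atp6 had 5924 and 4281 CPM, while mt-Atp8, the exception, had 120 and 128 CPM. For fatty acid oxidation the median was -0.03 over 23 genes and 0.02 under TMM scaling, with Cpt1a, which admits fatty acids to mitochondria, at 22.5 and 32.8 CPM (0.54, 0.10 to 0.98) and Cpt1b at 1 UMI in each library. Mitochondrial fusion and fission genes had a median of 0.12 over 7 genes, and Mfn1, a fusion GTPase, had 10.7 and 14.6 CPM (0.44, -0.23 to 1.10). Immediate early and NF-κB genes had a median of -0.18 over 23 genes, and 0.45 in no-marker cells.

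Seed matches were counted in the longest annotated 3′ untranslated region of each gene. A 7-base match to the miR-142a-3p seed (ACACTAC on the transcript strand) was found in 543 of 7606 genes, whose median log2 ratio was 0.02 beside -0.06 for the 7063 genes without it. Of these genes 2.21% had a KO level of 2-fold or more over WT, beside 0.864% of the others. The match to the miR-142a-5p seed (ACTTTAT) was found in 1251 genes with a median of -0.07 beside -0.05, and 0.400% were at least 2-fold higher beside 1.07%. In no-marker cells the medians for the 3p match were 0.03 and -0.07. A match is a description of the letters and no proof of a site.

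Gna11, a G protein α subunit that couples receptors to phospholipase C, held 3 matches to the 3p seed and was among the 12 highest ratios, with 91 UMIs in WT and 137 in KO, or 18.1 and 60.7 CPM (1.74, 1.35 to 2.15). It was higher at each marker number (1.79, 1.63 and 1.86) and also in no-marker cells (1.87). Msi2, an RNA-binding protein of stem cells, held 1 match and was lower in KO with 130 and 66.1 CPM (-0.97, -1.24 to -0.71). The 4 matches are shown because these genes carry the same letters at different ratios. They are given in transcript orientation with the match in capitals and 10 bases on either side (GENCODE M21, GRCm38, all on the minus strand).
Gna11, chr10:81530235-81530241: gccaggtgacACACTACagggtctagt
Gna11, chr10:81529815-81529821: ctgctcatatACACTACagtgtctatc
Gna11, chr10:81529477-81529483: gccatcccatACACTACagagctacat
Msi2, chr11:88340233-88340239: ctgggcacagACACTACacaaggcaat

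The 3 Gna11 matches lie 554, 974 and 1312 bases into a 2071-base untranslated region, and each is followed by an A, as is the match of Msi2. Of the 84 megakaryocyte genes past the filter, 12 held the 5p match, 8 of them above 0 with a median of 0.08. Among these 12 were Plek (1.18) and Meis1 (-0.63), which lay at opposite ends of their lists. The 3p match was held by only 4 of the 84 genes, 3 of them above 0 with a median of 0.39.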

How the data were processed

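The deposited files held raw UMI counts per gene and barcode, unfiltered (1957898 barcodes in WT and 2055088 in KO), made by the authors with Cell Ranger against mm10. The submitters' processing notes give version 6.1.2, the file headers version 4. The study captured about 8000 cells per group, and its limits (more than 300 UMIs, under 10% mitochondrial) left 8525 and 7099 barcodes. Here a minimum of 8000 UMIs was set, and doublets were kept in the main results. UMIs of the selected cells were summed per library and scaled to CPM, and a log2 ratio with 0.1 CPM added was taken for genes at a mean of 10 CPM or more. A list was described by its counts and median beside all genes. With 1 library per group no test was made, and the ratios and intervals were tested on simulated data. Of 32285 gene identifiers 32235 matched GENCODE M21, which has the same build as mm10.

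The cells, gene lists and rules were chosen with earlier results of these data known. Named genes were the rule genes, genes that check the labels or that the study followed, the 3 most abundant and the extreme genes of each megakaryocyte list, the 12 highest and 12 lowest ratios among genes with 25 CPM or more and a UMI in 10% of cells in the higher library, the 15 leading genes over no-marker cells, and the 2 most abundant genes of each other list. Other genes were named after their values were seen. Alternatives changed the cell rules, scaling, filters, pseudocount, doublets (Scrublet in scanpy 1.11.5) and free RNA. Python 3.11.15, numpy 2.4.6, scipy 1.17.1 and pandas 2.3.3 were used. An erythroid comparison group was planned but held only 17 WT and 6 KO cells and was left out. Some genes are not reported here.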

Additional observations from a re-analysis of the deposited data

Results flagged for a closer look

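The log2 ratio of KO over WT had opposite signs in megakaryocyte-primed and no-marker cells, with counting intervals that left out 0 in both, for 2 named genes, and the differences were not tested. Kit was at -0.96 in megakaryocyte-primed cells (94.7 and 48.8 CPM) and at 0.74 in no-marker cells (125 and 208 CPM). Lcp2 was at -0.58 (41.8 and 27.9 CPM) and at 0.40 (46.8 and 61.6 CPM). Mast cells carry Kit. Mast and basophil genes together summed to 4573 CPM in WT and 17989 CPM in KO no-marker cells, and to 294 and 702 CPM in megakaryocyte-primed cells. Their part in the result was not tested.

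Barcodes under the minimum of 8000 UMIs, which entered only the alternative with a minimum of 5000 UMIs, held a few more that met the other rules. Of 1561 KO barcodes with 500 to 7999 UMIs, 9 met the other rules (0.577%), against 3 of 2215 in WT (0.135%), at median depths of 6948 and 7118 UMIs.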

How the results depend on the processing

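The share of megakaryocyte-primed cells, KO minus WT, was -1.74 percentage points. It was 4.70 over granule-low cells (chosen after seeing the data), -0.26 with the rules applied after thinning to 8000 UMIs, -0.65 with 4 or more markers, -3.67 with 2 or more and -2.53 at 12000 UMIs or more. The 77 higher and 90 lower genes became 632 and 799 with no filter beyond 1 UMI in each library, 21 and 9 at a mean of 50 CPM, 268 and 505 at a fold of 1.5, and 146 and 229 with members thinned before summing. Lower genes numbered 188 with the rules applied after thinning, where 41 of the 77 and 49 of the 90 genes kept their call. The median of the megakaryocyte lists was 0.00533 there and between 0.09 and 0.20 in the other 19 alternatives. TMM and median-of-ratios scaling gave 89 higher and 73 lower genes and added 0.05 to each log2 ratio. Lilrb4a, the only named gene at 2-fold or more whose ratio reversed, was at -0.10 with the rules applied after thinning. Elane was at 0 after free RNA subtraction, which left no level of it in either library. The causes were not tested. Of 69 named genes 52 had the same sign in all alternatives, and of the 30 at 2-fold or more 28 had. Scrublet removed 14 WT and 1 KO members. No paired analysis was possible because there was 1 library per group.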
